A study of Mus musculus with 40 samples.

Results

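Follicular B cells lacking both Tet2 and Tet3 were compared with wild-type follicular B cells at 384905 tiles of 100 bp. The tiles were those on autosomes with a methylation level in all 6 libraries compared, which is 39.6% of the 971845 tiles listed and 48.3% of the 796727 with a value in any library, and no level entered their choice. The DKO libraries, 22, 23 and 24 by the running number in their titles, came from double-knockout mice, labelled TET2/3_KO. Libraries 22 and 23 were from males of 7 weeks and library 24 from a female of 6 weeks. Single-knockout follicular libraries (Tet3KO, 19 to 21, and Tet2KO, 16 to 18) and 12 pro-B libraries, 3 of each genotype, are used beside them. Tet3KO follicular libraries were from 2 males and 1 female of 7 weeks, and Tet2KO ones were all from females, of 8, 6 and 6 weeks. The wild-type (WT) follicular libraries 13, 14 and 15, labelled NORMAL, came from males of 8 and 6 weeks and a female of 6 weeks. All were on a C57/bl background, and the knockout was inducible under the MB1 promoter per the labels. MB1 is Cd79a, a signalling subunit of the B-cell receptor, and its promoter drives deletion from early B-lineage stages onwards. The labels do not say whether WT mice carried a recombinase or whether animals were pooled. They also do not say that each library had its own mouse, and p-values below cover no more than library-to-library spread.

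TET enzymes oxidise the methyl group of 5-methylcytosine to 5-hydroxymethylcytosine and further forms, which are then lost through repair or by dilution at replication. Tet2 and Tet3 are the members of the family mainly expressed in B-lineage cells. Follicular B cells are the large resting population of spleen and lymph node that answers protein antigens. Reduced representation bisulfite sequencing (RRBS) reads methylation in restriction fragments rich in CpG, and bisulfite does not tell 5-methylcytosine from 5-hydroxymethylcytosine. A level below is the percentage of methylated calls in a tile, an average over cells and alleles. Full methylation in some of the cells and partial methylation in all of them cannot be told apart. The levels come without reads per tile, so depth is unknown and no counting interval can be given. The libraries had a value at 480090 to 527930 tiles in DKO and at 546389 to 608149 tiles in WT. Of the member tiles, 18.9 to 22.4% stood at exactly 100% in the DKO libraries and 11.8 to 15.8% in the WT libraries. The part of this difference in the results below was not tested.

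Most of the measured genome was alike in both genotypes, and most of the larger differences were gains in the DKO. Both groups stood at or above 80% at 56.8% of the tiles and below 20% at 28.8%, and at 76.0% of tiles the group means lay within 5 percentage points. Over all tiles the mean level was 63.6%, 62.9% and 63.5% in DKO libraries 22, 23 and 24, against 62.2%, 61.8% and 62.1% in WT libraries 13, 14 and 15. The DKO libraries did not overlap the WT libraries, and the difference was 1.28 points (SE 0.257, n = 3 each, two-sided exact permutation p = 0.1, the smallest that 3 against 3 allows). The median tile differed by 0.213 points, so more tiles shifted by less than the mean than by more. A difference of 20 points or more was found in favour of DKO at 7340 tiles and in favour of WT at 1013 tiles. At 50 points or more these counts were 784 and 4.

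Gains were greatest at tiles of middling methylation. Grouping tiles by their own DKO and WT levels would itself move tiles with a large difference into the middle, so tiles were grouped by the mean of the 6 single-knockout follicular libraries, which enter neither side of the difference, a choice made after seeing the data. At the 35313 tiles where that mean lay between 20 and 80%, the level was 61.8%, 57.8% and 61.04% in DKO libraries 22, 23 and 24, against 54.9%, 53.5% and 54.04% in WT libraries 13, 14 and 15. Library 23 was the lowest of the DKO libraries and still lay above all WT libraries. The difference was 6.08 points (SE 1.28, n = 3 each, exact permutation p = 0.1). Grouped by the mean of the 6 DKO and WT libraries instead, 43705 tiles differed by 6.52 points, with 6.06 points between the males and 7.43 points between the females.

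By single-knockout level, the gap was widest between 40 and 60%, where DKO cells stood at 55.1% ± 2.74 and WT cells at 46.99% ± 0.74 (SD, n = 3 each), a gap of 8.07 points. At tiles of 20 to 40% the gap was 7.63 points, and at 60 to 80% it was 4.46 points. Tiles under 5% averaged 1.27% ± 0.067 in DKO and 0.829% ± 0.017 in WT, a gap of 0.443 points. Tiles of 95% or more averaged 96.3% ± 0.0836 in DKO and 96.1% ± 0.12 in WT, a gap of 0.206 points, and a level so near 100% leaves little room for a gain. The DKO libraries lay above the WT libraries in every class. Single tiles could still gain much where the single knockouts were nearly unmethylated, and 73 of the 87640 tiles under 5% were called higher in DKO by the test described next.

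**Figure D1:**
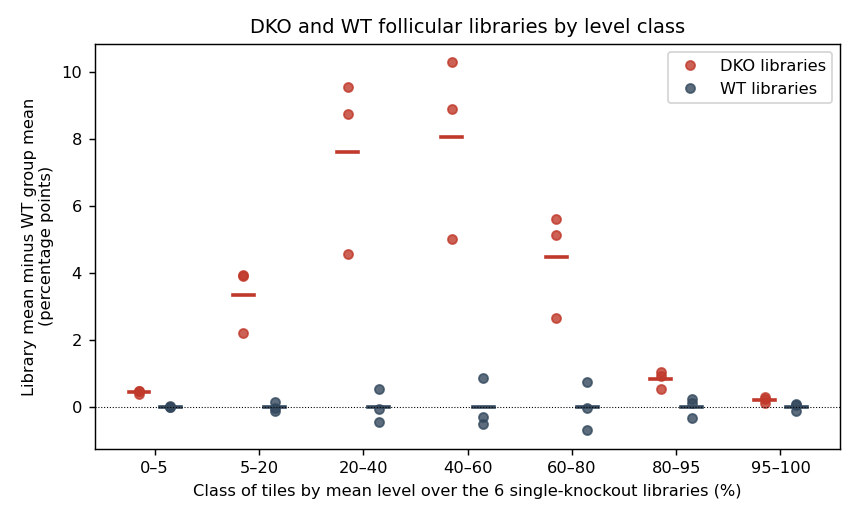
Mean level of each follicular library minus the WT group mean (percentage points, vertical axis) in 7 classes of tiles set by the mean over the 6 single-knockout libraries (%, horizontal axis); points are libraries and bars group means. The 3 DKO libraries lie above the 3 WT libraries in every class, by 8.07 points on average between 40 and 60% and by 0.443 and 0.206 points in the lowest and highest class.

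DKO libraries also spread more widely than WT libraries. The median SD among the 3 libraries of a tile was 3.05 points in DKO and 2.62 in WT over all tiles, and 10.3 points in DKO and 8.11 in WT at tiles whose mean over the 6 libraries was 20 to 80%. Without reads per tile, spread from few reads and spread between animals cannot be told apart.

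Single tiles were tested with limma, with the spread estimated over all 12 follicular libraries. A tile was called when its Benjamini-Hochberg adjusted p over the 384905 tiles was below 0.05 and its DKO and WT means lay at least 20 points apart. This called 919 tiles higher in DKO, 0.239% of those tested, and 13 lower, 0.00338%. The 3 DKO libraries lay above the 3 WT libraries at 27404 tiles (7.12%) and below them at 9944 (2.58%). All 919 and all 13 called tiles were separated in this way, which the call itself largely brings about. An unadjusted p under 0.05 was reached by 21044 tiles higher and 6888 lower in DKO. The number of calls depended strongly on which libraries were fitted. With only the 6 DKO and WT libraries fitted, 2 tiles were called higher and 0 lower, although all 919 kept an unadjusted p under 0.05. Without the single knockouts the fit has 4 residual degrees of freedom in place of 8 and another estimate of the spread. Their parts in the fall were not tested. The count of higher tiles was 588, 493 and 518 without WT library 13, 14 and 15, 516 with all 24 libraries fitted, and 1615 when tiles with a mean outside 5 to 95% were not tested.

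**Figure D2:**
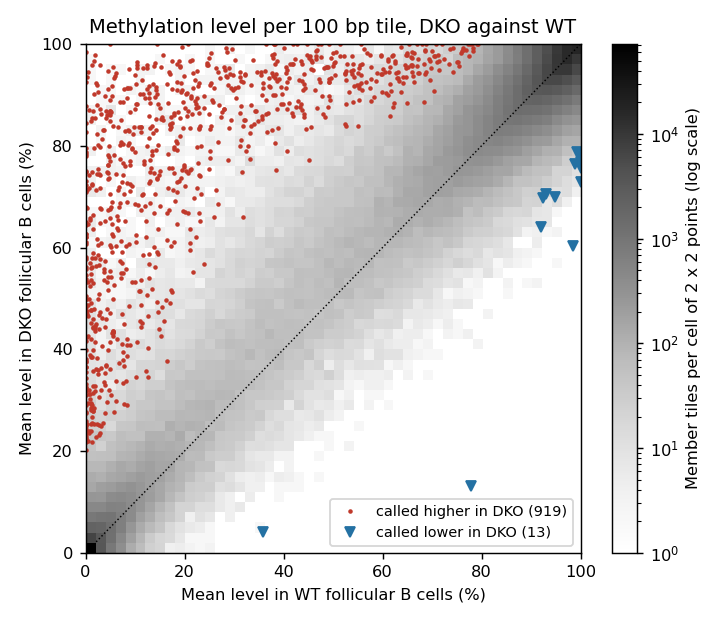
Mean level in DKO (vertical axis, %) against mean level in WT follicular B cells (horizontal axis, %) for all 384905 tiles; grey shade counts tiles per cell on a log scale, and marks are the called tiles. The 919 tiles called higher in DKO fill the upper left, many at a WT level near 0, and only 13 are called lower.

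At the tiles called higher, methylation in the DKO was often nearly complete. Their median level was 83.5% in DKO and 14.95% in WT, with quartiles of 59.7% and 93.2% in DKO and 4.56% and 38.4% in WT. These levels chose the tiles, so they describe the calls and do not test them. The DKO mean was 80% or more at 498 of the 919 and between 50 and 80% at 252. The WT mean lay under 10% at 363, from 10 to 20% at 168, from 20 to 50% at 242 and above that at 146. At 60 of them (6.53%) all 3 WT libraries were listed at 0, against 10.2% of all tiles. At 22 tiles every DKO library stood over 80% while every WT library stood under 10%. No tile of the 384905 had the opposite pattern, with every DKO library under 10% and every WT library over 80%.

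The 919 tiles joined, at gaps of up to 500 bp, to 733 regions, of which 150 held 2 or more called tiles, 27 held 3 or more and 8 held 4 or more. Positions are mm9 coordinates, and regions carry no gene names because the gene tables at hand are of another build. The 20 regions of 2 or more called tiles with the greatest mean difference had DKO means of 74.6 to 96.6% and WT means of 0 to 21.9%. In none of the 20 did any DKO library fall under 70.3% or any WT library exceed 29.95%, and limma's adjusted p of their called tiles ran from 3.24e-05 to 0.0327. All 20 were called on the logit scale, with sex as a covariate and with libraries centred, and 16 were with all 24 libraries fitted. The 4 lost there were chromosome 7, 134300501 (adjusted p = 0.072), chromosome 4, 43496401 (0.0692), chromosome 9, 57815301 (0.0683) and chromosome 13, 30856401 (0.0957). With only the 6 libraries fitted the smallest adjusted p of each lay between 0.0848 and 0.11, so none was then called.

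The greatest difference, 94.98 points, was at chromosome 9, 44379101 to 44379300. Libraries 22, 23 and 24 of the DKO stood there at 97.3%, 91.0% and 100%, against 1.37%, 1.24% and 0.779% in WT libraries 13, 14 and 15. Chromosome 7, 29573001 to 29573200, had 91.7%, 100% and 96.4% in DKO and 4.07%, 11.4% and 8.40% in WT. These DNA stretches were thus close to fully methylated in one genotype and close to unmethylated in the other. Chromosome 13, 41642101 to 41642300, had 99.0%, 92.6% and 92.7% in DKO against 7.54%, 14.2% and 6.82% in WT. Chromosome 19, 7029801 to 7030000, had 91.4%, 88.0% and 93.8% in DKO against 7.05%, 11.1% and 6.45% in WT. Chromosome 17, 6981601 to 6981800, had 91.1%, 85.5% and 94.7% in DKO against 7.604%, 6.17% and 11.3% in WT. In all of these regions every DKO library was mostly methylated and every WT library mostly unmethylated, with no overlap.

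Some regions were wholly or almost unmethylated in WT but stopped short of full methylation in DKO. Chromosome 10, 116996501 to 116996800, was listed at 0 in all 3 WT libraries and stood at 77.3%, 73.3% and 73.3% in DKO libraries 22, 23 and 24. Chromosome 13, 30856401 to 30856600, had 78.4%, 75.2% and 71.2% in DKO, against 1.11%, 0% and 0% in WT. Chromosome 4, 43496401 to 43496600, had 89.3%, 70.3% and 81.8% in DKO, against 7.5%, 0% and 0% in WT. In each of them the groups were far apart, and the DKO libraries differed more among themselves than the WT libraries did. WT levels at or near 0 leave little room for a spread. Chromosome 10, 79542701 to 79542900, had 86.4%, 83.4% and 79.5% in DKO against 3.27%, 2.38% and 9.17% in WT, and chromosome 7, 134300501 to 134300700, 93.5%, 86.2% and 72.9% in DKO against 11.7%, 0.862% and 5.88% in WT. One WT library stood apart at chromosome 11, 102294301 to 102294500, where WT library 13 was at 23.5% and libraries 14 and 15 at 4.59% and 4.26%, against 89.3%, 92.9% and 89.7% in DKO. That region had an adjusted p of 0.0503 without WT library 14 and was then not called.

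The WT mean was highest, among the 20, at chromosome 19, 53517501 to 53518200, with 98.1%, 97.8% and 93.9% in DKO against 29.95%, 19.9% and 15.8% in WT. Chromosome 11, 118137801 to 118138000, had 92.8% ± 7.63 in DKO and 17.7% ± 4.38 in WT (SD, n = 3 each). Chromosome 1, 182859201 to 182859400, had 91.9% ± 1.49 in DKO and 16.9% ± 5.51 in WT. Chromosome 17, 29476301 to 29476500, had 93.2% ± 7.68 in DKO and 16.9% ± 2.00 in WT. Differences of 73.6 to 81.1 points were found at the remaining 5 regions: chromosome 11, 44306901 to 44307200; chromosome 13, 114909701 to 114909900; chromosome 9, 57815301 to 57815600; chromosome 7, 106036401 to 106036700; and chromosome 5, 123774301 to 123774700.

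**Figure D3:**
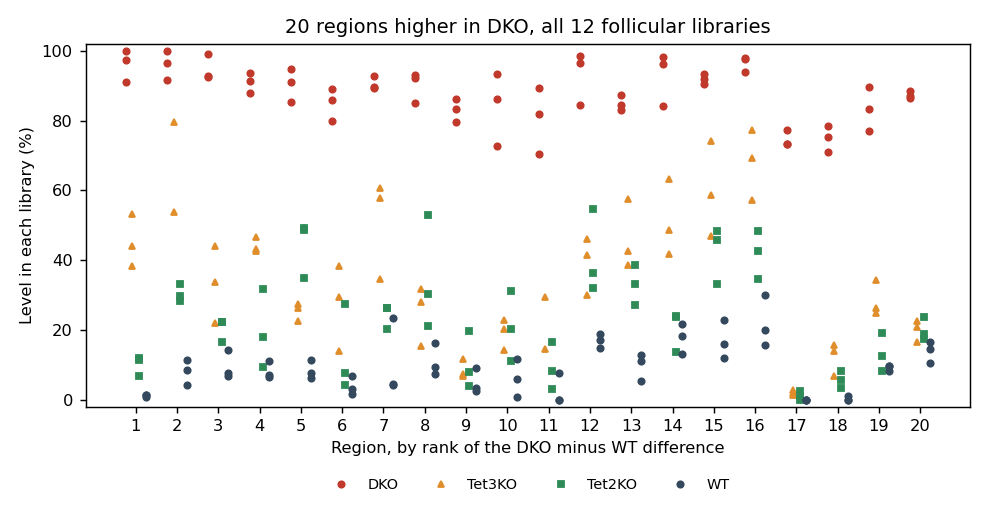
Level in each of the 12 follicular libraries (%, vertical axis) at the 20 named regions, ordered by the DKO minus WT difference (horizontal axis). DKO libraries lie at 70.3% or more and WT libraries at 29.95% or less in every region. Single-knockout libraries range from WT-like levels up to 79.6% and lie below every DKO library of the same region.

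Single-knockout libraries lay below every DKO library in all 20 regions, but their distance from WT varied from region to region. The regions were chosen for a DKO level far above WT, which by itself favours single knockouts below DKO. These comparisons share the WT libraries with the DKO comparison, so levels are given side by side with no count of shared direction. Chromosome 10, 116996501 to 116996800, was close to its WT level of 0 in both single knockouts, at 1.99% ± 0.768 in Tet3KO and 1.23% ± 1.27 in Tet2KO (SD, n = 3 each). Chromosome 10, 79542701 to 79542900, had 8.61% ± 2.59 in Tet3KO and 10.6% ± 8.22 in Tet2KO. By contrast, chromosome 19, 53517501 to 53518200, had 67.9% ± 10.2 in Tet3KO and 41.9% ± 7.04 in Tet2KO. The chromosome 9 region with the greatest difference had 45.3% ± 7.56 in Tet3KO and 10.05% ± 2.85 in Tet2KO. Tet3KO was the higher of the single knockouts by group mean in 15 of the 20 regions. Every Tet3KO library with a value lay above every Tet2KO library in 8 regions. Among these 8, chromosome 7, 29573001 to 29573200, had values in only 2 Tet3KO libraries. At chromosome 9, 57815301 to 57815600, the lowest Tet3KO library stood at 38.65% and the highest Tet2KO library at 38.64%. The share of all tiles separated in this way, or with the higher mean in Tet3KO, was not counted over the same kind of regions. These counts are therefore not read as a trait of the 20 regions. The reverse separation was seen in 1, at chromosome 17, 6981601 to 6981800, which had 25.4% ± 2.64 in Tet3KO and 44.3% ± 8.17 in Tet2KO.

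The same order held over the called tiles as a whole. At the 835 of the 919 tiles with a value in all 12 follicular libraries, the mean level was 74.7% ± 1.63 in DKO, 45.7% ± 1.10 in Tet3KO, 36.9% ± 0.486 in Tet2KO and 23.5% ± 0.746 in WT (SD, n = 3 each). No library of one genotype overlapped those of the next in this order. The call itself sets DKO above WT at these tiles and favours single knockouts between them. It does not set the order of Tet3KO and Tet2KO. Over the 324168 member tiles with 12 values the means were 61.0%, 60.7%, 60.2% and 59.7% in the same order. Where WT was under 10% (319 tiles), DKO stood at 56.7% ± 2.32, Tet3KO at 17.95% ± 1.26, Tet2KO at 9.76% ± 0.0965 and WT at 3.53% ± 0.514. The single knockouts there remained far nearer to WT than to DKO. Where WT was between 50 and 80% (135 tiles), DKO stood at 94.9% ± 0.666, Tet3KO at 84.2% ± 0.353, Tet2KO at 80.02% ± 0.154 and WT at 63.3% ± 0.927. Tet3KO stood nearer to DKO there, and Tet2KO only slightly so. These groups were set by the WT level, which also enters the call. A WT level of 50 to 80% leaves DKO less room above it than one under 10%. Tet3KO exceeded Tet2KO by 10 points or more at 330 of the 835 tiles (39.5%) and fell below it by as much at 36 (4.31%), against 3.94% and 2.36% of all 324168 tiles. The Tet2KO libraries were all female and the Tet3KO libraries mostly male, so sex and genotype cannot be fully told apart in that pair.

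Pro-B libraries, which took no part in the fit, were higher in DKO than in WT at the same tiles. They are from the same sexes and ages as the follicular libraries of each genotype, and whether they came from the same mice is not given. At the 322 called tiles with a value in all 6 pro-B libraries of these genotypes, the mean level was 54.3 to 67.5% in pro-B DKO libraries and 26.8 to 29.3% in pro-B WT libraries. All 3 pro-B DKO libraries lay above the 3 pro-B WT libraries at 160 of these tiles (49.7%), against 3.72% of the 151559 member tiles with those 6 values. At the 322 tiles follicular DKO cells stood at 64.8% ± 2.23 and follicular WT cells at 17.6% ± 0.704 (n = 3 each). The pro-B WT mean was at least 20 points above the follicular WT mean at 86 of the 322 tiles (26.7%) and at least 20 points below it at 8 (2.48%), against 0.671% and 2.77% of all 151559. It lay under 20% at 166 of them (51.6%), against 62.3% of all 151559. Tiles were chosen for a low follicular WT level, which by itself favours the first count.

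Coverage of the named regions in pro-B cells was thin, with a value in all 6 libraries at 5 of the 20. At chromosome 11, 44306901 to 44307200, pro-B DKO libraries 10, 11 and 12 stood at 91.6%, 83.0% and 72.0%, against 1.87%, 15.1% and 13.8% in pro-B WT libraries 1, 2 and 3. Follicular levels at this region were 86.0%, 79.8% and 89.2% in DKO against 3.14%, 6.90% and 1.67% in WT, so both stages had high DKO and low WT levels. At chromosome 19, 53517501 to 53518200, pro-B cells of both genotypes were methylated, at 95.5%, 78.8% and 96.7% in DKO against 75%, 90.8% and 100% in WT. The genotypes overlapped in pro-B cells there and did not in follicular cells. Chromosome 13, 41642101 to 41642300, had 88.2%, 100% and 100% in pro-B DKO against 61.6%, 0% and 11.8% in pro-B WT, with a wide spread among the WT libraries.

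**Figure D4:**
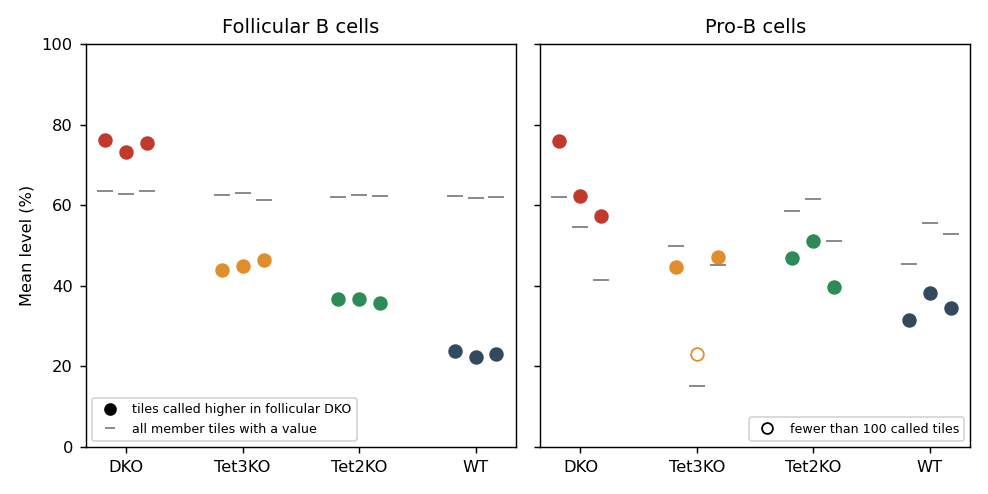
Mean level (%) in each library at the tiles called higher in follicular DKO (circles) and at all member tiles with a value (grey dashes), for follicular B cells (left) and pro-B cells (right); the open circle marks a library with fewer than 100 of the called tiles. In follicular cells the circles order as DKO, Tet3KO, Tet2KO and WT without overlap, where the call itself sets DKO above WT. Pro-B DKO libraries stand above pro-B WT libraries.

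Around the called tiles, the gain was greatest at the nearest tiles. At the 597 uncalled tiles directly next to a called one, the level was 67.6% ± 2.27 in DKO and 45.3% ± 0.515 in WT (SD, n = 3 each), a difference of 22.2 points. It was 14.1 points at 255 tiles whose starts lay 200 bp away, 8.90 points at 276 tiles 300 to 500 bp away and 4.50 points at 358 tiles 600 to 1000 bp away. Beyond 100000 bp, where 342231 tiles lay, it was 1.004 points. The DKO level was 69.6% at 200 bp, 60.3% at 600 to 1000 bp and 54.2% at 2100 to 5000 bp, and the WT level at these distances was 55.5%, 55.8% and 51.7%. Outside the tiles called higher, WT was lowest at 100 bp, while DKO stood higher at 100 and 200 bp than at any greater distance. Each distance holds a different set of tiles. Of the adjacent uncalled tiles 46.2% were 20 points or more higher in DKO and 0 lower by as much, against 1.43% higher and 0.275% lower beyond 100000 bp. That smaller share still made up 4878 of the 7340 tiles that were 20 points or more higher in DKO. Levels at the called tiles themselves, 74.96% in DKO and 23.03% in WT, are set by the calling. Adjacent tiles can share reads, and the part of this in the values next to called tiles was not tested.

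**Figure D5:**
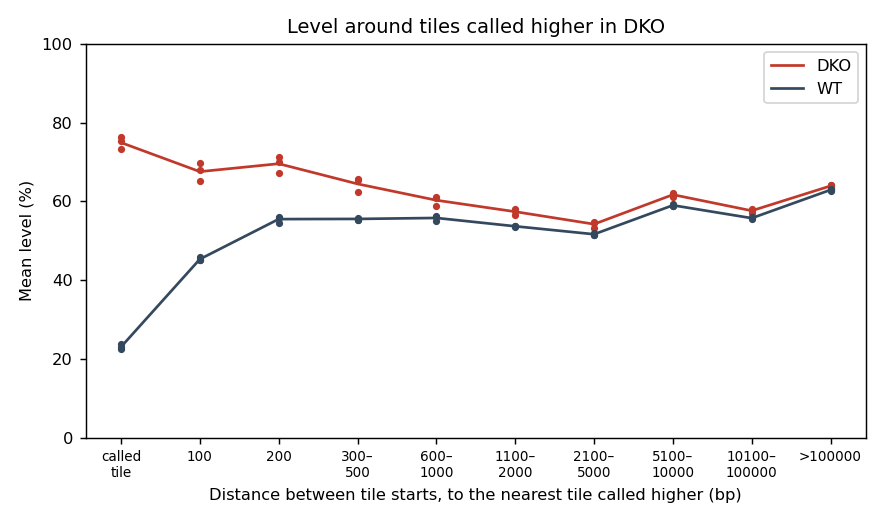
Mean level (%) in DKO and WT follicular libraries at member tiles grouped by the distance (bp) between their start and that of the nearest tile called higher in DKO; points are libraries and lines join group means. The levels at distance 0 are set by the calling; at 100 bp DKO stands at 67.6% and WT at 45.3%, and the difference shrinks to 1.004 points beyond 100000 bp.

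Called tiles were few in densely tiled DNA. Member tiles were split by how many others started within 1000 bp, a stand-in for CpG density that uses no level: 0 to 2 (sparse), 3 to 8 (middle) and 9 or more (dense). Sparse tiles gained 1.44 points, at 84.3% ± 0.479 in DKO and 82.9% ± 0.229 in WT, and 578 of 197136 (0.293%) were called higher. Middle tiles gained 1.29 points, and 328 of 140295 (0.234%) were called. Dense tiles, of low level in both genotypes, gained 0.586 points, at 14.2% ± 0.153 in DKO and 13.6% ± 0.11 in WT, and 13 of 47474 (0.0274%) were called (SD, n = 3 each, exact permutation p = 0.1 for each class). The same order was seen among tiles whose mean over the 6 libraries was 20 to 80%, where the gain was 6.81 points at sparse, 6.53 at middle and 3.55 at dense tiles. That grouping by DKO and WT levels itself moves tiles with a large difference into the middle. Density was not split by the single-knockout level. The share of called tiles that were dense was 1.41%, against 12.3% of all member tiles.

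Calls were found on every autosome. The share of tiles called higher ran from 0.165% on chromosome 4 (46 of 27868) to 0.367% on chromosome 19 (42 of 11440). Mean differences by chromosome ran from 0.942 points on chromosome 14 to 1.64 points on chromosome 19. The longest run of called tiles was chromosome 16, 32200401 to 32201000, with 5 called tiles over 600 bp. It stood at 74.0%, 64.9% and 63.8% in DKO libraries 22, 23 and 24, against 15.7%, 15.1% and 11.3% in WT libraries 13, 14 and 15. Its pro-B levels overlapped, at 89.0%, 12.8% and 44.1% in DKO libraries 10, 11 and 12 against 9.5%, 20.1% and 2.14% in WT libraries 1, 2 and 3. Chromosome 14, 34003001 to 34003400, with 4 called tiles, had 64.0%, 66.3% and 63.2% in DKO against 1.84%, 0.382% and 0.651% in WT. Both single knockouts were close to WT there, at 4.85% ± 3.59 in Tet3KO and 3.52% ± 2.55 in Tet2KO (SD, n = 3 each). Pro-B cells had 84.6%, 76.2% and 86.1% in DKO libraries 10, 11 and 12 at this run, against 3.60%, 3.69% and 3.95% in WT libraries 1, 2 and 3. Chromosome 7, 118067001 to 118067400, with 4 called tiles, had 84.1%, 76.5% and 85.2% in follicular DKO against 13.8%, 7.76% and 7.09% in follicular WT, with 20.3% ± 3.53 in Tet3KO and 7.78% ± 3.61 in Tet2KO. Its pro-B levels were 89.0%, 91.8% and 90.0% in DKO against 2.82%, 6.82% and 4.72% in WT. At both runs the DKO and WT libraries were far apart at either stage, which was not so at every run. Chromosome 8, 10854001 to 10854400, also with 4, had 92.3%, 86.6% and 84.3% in DKO against 33.0%, 30.2% and 31.4% in WT, in follicular cells, with 63.6% ± 3.73 in Tet3KO and 57.7% ± 3.67 in Tet2KO. Its pro-B levels also overlapped, at 87.5% and 100% in DKO libraries 10 and 11 against 100%, 65.3% and 50% in the WT libraries. Chromosome 5, 147490401 to 147490900, with 4 called tiles, had 66.1%, 58.4% and 60.3% in DKO against 6.79%, 15.6% and 9.18% in WT, and chromosome 11, 118887601 to 118888100, had 82.2%, 73.8% and 77.6% in DKO against 29.3%, 23.04% and 23.6% in WT. These runs were named after their values were seen and were chosen for holding several called tiles, so they describe the calls.

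Few tiles were called lower in the DKO. A loss of 20 points or more was found at 1013 tiles, 535 of them with separated libraries, and whether these lie side by side was not examined. The 13 tiles called lower averaged 62.3% ± 0.72 in DKO and 91.0% ± 1.62 in WT (SD, n = 3 each). No 2 of them joined to a region, which with so few calls says little of the extent of loss. The adjusted p limits false calls over both directions together and not among these 13 alone. The greatest fall was at chromosome 10, 12810801 to 12810900, with 11.8%, 0% and 27.4% in DKO libraries 22, 23 and 24, against 86.2%, 66.7% and 80.6% in WT libraries 13, 14 and 15. This tile fell by 64.7 points (limma SE 10.4, adjusted p = 0.0463), and stood at 56.8% ± 3.35 in Tet3KO and 32.7% ± 17.6 in Tet2KO. Chromosome 1, 183489901 to 183490000, had 50%, 69.2% and 61.5% in DKO against 100%, 100% and 95.2% in WT (limma adjusted p = 0.0264). Chromosome 1, 74930301 to 74930400, had 8.00%, 4.26% and 0% in DKO against 43.1%, 30.4% and 33.9% in WT (limma adjusted p = 0.0235). At 4 of the 13 tiles, all 3 WT libraries stood at exactly 100%, as they did at 3.43% of all tiles. Among them, chromosome 6, 75028001 to 75028100, had 72.7%, 76.5% and 69.2% in DKO, chromosome 6, 114379901 to 114380000, had 78.6%, 75% and 73.3%, and chromosome 12, 74684501 to 74684600, had 76.9%, 76.5% and 76.9%. The other 4 named tiles fell by 22.4 to 28.0 points, at chromosome 7, 81502401 to 81502500; chromosome 1, 105121001 to 105121100; chromosome 1, 29048001 to 29048100; and chromosome 13, 53850201 to 53850300. The count was 40, 63 and 38 without DKO library 22, 23 and 24, 7, 8 and 6 without WT library 13, 14 and 15, 30 when tiles outside 5 to 95% were not tested, and 8 both with sex as a covariate and with all 24 libraries fitted. Of the 10 named tiles 5 lost their call on the logit scale, 5 with sex as a covariate, 7 with all 24 libraries and 10 with the 6 libraries alone. Of the 20 named higher regions 0, 0, 4 and 20 lost theirs under the same settings.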

How the data were processed

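RRBS libraries of follicular and pro-B cells were analysed as 100 bp tiles. The authors deposited a methylation fraction per tile and library, without read counts, coverage or gene names. Per the submitters' processing notes, tools included Trim Galore and methylKit and builds mm9 and hg19, and no version is stated. The aligner, conversion rate and coverage minimum are not given in the sources used here. Coordinates were taken as mm9, since chromosome 1 tiles reach 197193600. Fractions were multiplied by 100. RNA samples were not analysed here.

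Limma 3.58.1 (R 4.3.3) was fitted across all member tiles to the level in percent, with 4 follicular genotypes as a factor (8 residual degrees of freedom where all 12 values exist; Tet2KO and Tet3KO entered where they had a value) and a trended prior spread. Calls needed a Benjamini-Hochberg adjusted p under 0.05 and 20 points. The fit was tested on simulated data. Called tiles within 500 bp were joined. Named were the first 20 higher regions and 10 lower ones by absolute difference, of 2 or more called tiles with separated libraries, filled to 10 with single tiles. Planned gene lists, cell-type loci and motifs were not used, because the annotation at hand is of another build. Library means were compared by two-sided exact permutation. The members, lists and tests were chosen with earlier results of these data known. Alternatives were other sets of libraries, the logit scale (fractions kept from 0.01 to 0.99), sex as a covariate, centring, 10 or 30 points, tile filters, no trend of the prior, and each library left out. Python 3.11.15 and pandas 2.3.3 were used for summaries.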

Additional observations from a re-analysis of the deposited data

How the results depend on the processing

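Without any 1 library the 20 named higher regions stayed higher in DKO, and the mean differences stayed positive with either sex and without any library. Neither could turn out otherwise, since every DKO library lay above every WT library in these regions and tile classes. The regions all kept their call without any 1 library, except 1 region without WT library 14. With the 6 libraries alone limma called 2 tiles higher and 0 lower (19774 and 6104 at an unadjusted p under 0.05) and 0 named regions; this fit has 4 residual degrees of freedom. With all 24 libraries it called 516 higher, 8 lower and 19 of the 30 named regions. Leaving out a library gave 493 to 957 higher and 6 to 63 lower tiles. Testing only tiles of 5 to 95% gave 1615 and 30; such a test both adjusts over fewer tiles and refits the prior spread. Sex as a covariate gave 8 lower tiles, and a bound of 30 or 10 points 3 or 49. The cause of these shifts was not tested. The remaining alternatives moved the count of higher tiles by less than 1.5 times. The tiles called were not always the same ones. Of the 919, 597 were called on the logit scale, 655 with sex as a covariate and 423 with all 24 libraries. Without 1 library, 452 to 675 of them were called. Medians of tile differences were below the means, at 0.213 points over all tiles, 4.47 at intermediate, 0.561 at sparse, 0.141 at middle and 0 at dense tiles. The intermediate difference was 8.25 points at tiles of 30 to 70% and 6.08 with tiles grouped by the single knockouts, a choice made after seeing the data, and the dense one 0.386 points with a 500 bp window. No paired analysis was possible because the running numbers of the libraries differ between the genotypes. Unknown depth limits single tiles most, since tiles at either end of the scale may hold few reads.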

Other observations

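Of 2417 windows of 1 Mb with a member tile, 477 held a tile called higher in DKO, 107 held 3 or more and 28 held 5 or more. The window with most was chromosome 5, 149000001 to 150000000, with 9 of 343 member tiles (2.62%). It was followed by chromosome 5, 122000001 to 123000000, with 8 of 505 (1.58%). The highest share among the 15 windows with most calls was at chromosome 8, 10000001 to 11000000, with 7 of 141 (4.96%), against 0.239% of all tiles. These windows were named after their values were seen, and what lies in them was not examined.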
